A study of Mus musculus with 60 samples.

Results

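Oral swabs taken at day 28 from mice given nanoplastic particles of polyethylene terephthalate (PET), the polymer of drink bottles, were compared with swabs from unexposed mice. Swabs were chosen by their labels: the title had to name an oral swab, and the treatment had to be exposed or non exposed at 28 days. This gave 12 of the 60 libraries of the series, 6 in each arm. The study set out to follow the microbes of gut, lung, mouth and stool in male mice under daily gavage. The exposed arm received 0.5 mg of PET particles a day in 0.1 ml for 28 days. The labels give no strain, age, caging, particle size or vehicle for either arm, and they do not say whether unexposed mice were gavaged. Since the text on the design counts 6 mice in each arm, the 6 swabs of an arm were read as 6 animals, though no label ties a swab to the stool or tissue of the same mouse. P-values therefore measure the spread between these samples. The well-like code in the labels ends in 5 for all 6 control swabs and in 6 for all 6 PET swabs, so that, if this code is a plate position, position and arm cannot be told apart.

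The mouth of laboratory mice holds a community of few members. Streptococcus danieliae, a lactic streptococcus first described in mice, and Muribacter muris and Rodentibacter species, facultative relatives of Pasteurella, are usual colonists of rodent mucosa. The large intestine instead holds strict anaerobes such as Bacteroides, Alistipes, Muribaculaceae and Lachnospiraceae, which ferment fibre and host glycans. Mice eat their own faeces, which is a known route of gut bacteria to the mouth.

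The libraries are amplicons of variable regions V3 and V4 of the 16S rRNA gene, which tells bacteria apart, with reads counted for each distinct sequence (a feature). Totals ran from 119454 to 428830 counts, with 322988 ± 66037 in control and 286907 ± 123691 in PET (SD, n = 6 each; exact permutation p = 0.524, two-sided, not adjusted). Shares below are percent of the prokaryote counts of a library, which made up 95.8% of PET library 5 and at least 99.7% of the other 11. At the lowest total a share of 50% has a Wilson 95% interval of ± 0.284 percentage points, and a count of 0 allows a share of up to 0.00251%. These limits cover counting error only, since PCR reads are not independent molecules. The 12 swabs held 1897 prokaryote features in 382 genus-level groups, of which 62 features were in all 12 swabs and 1214 (64.0%) in 1. Of 10 genera listed as markers of the mouth, 9 were found in at least 1 swab and 3 in all 12, namely Streptococcus, Muribacter and Rodentibacter, while Actinobacillus was at 0.

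Muribacter and Streptococcus dominated both arms. Muribacter made up from 22.2% to 69.9% of control swabs (median 52.7%) and from 36% to 67.5% of PET swabs (median 49.0%). The arms overlapped widely, with means of 51.3% ± 16.4 and 50.1% ± 12.5. Streptococcus ran from 10.1% to 70.0% in control (median 32.1%) and from 4.30% to 45.8% in PET (median 25.7%), again with wide overlap. Its means were 34% ± 20.5 and 26.5% ± 16.7 (SD, n = 6 each). Neither genus passed edgeR's quasi-likelihood test, which scales each library by TMM factors (trimmed means of the ratios between libraries). The log2 change was 0.69 ± 0.70 (SE) for Muribacter and 0.65 ± 0.94 for Streptococcus, with Benjamini-Hochberg adjusted p of 0.825 and 0.911. Both signs turned when libraries were scaled by their totals, to -0.04 and -0.36, so no direction is given for either genus.

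**Figure D1:**
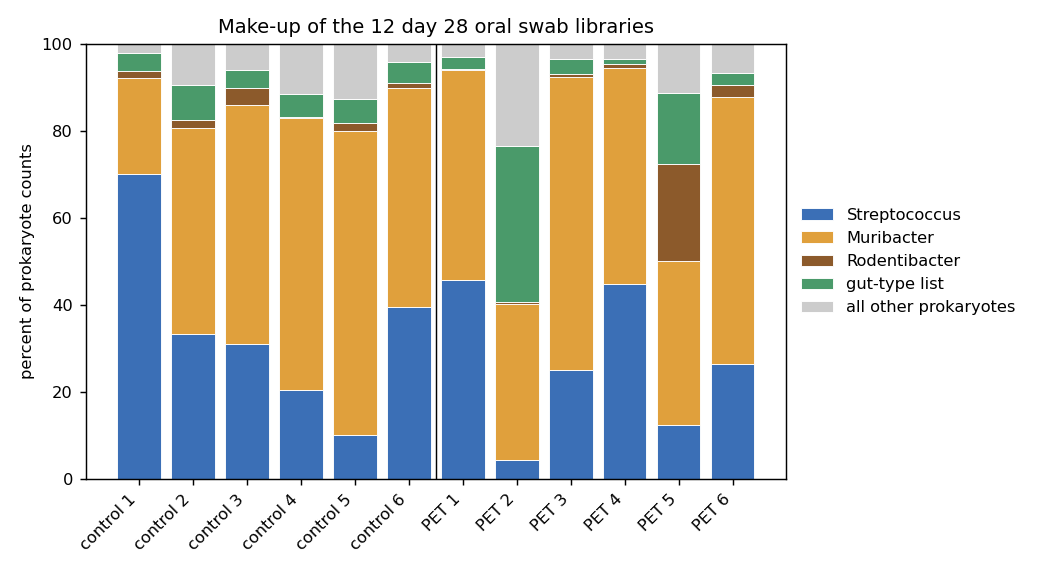
Stacked bars give the percent of prokaryote counts in Streptococcus, Muribacter, Rodentibacter, the gut-type list and all other prokaryotes (y axis, percent) for each of the 12 oral swab libraries (x axis, 6 control left of the line, 6 PET right of it). Streptococcus and Muribacter together fill 80.0% or more of every bar except PET library 2 (40.3%) and PET library 5 (50.1%).

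The balance of the dominant pair, as the ratio of Streptococcus to Muribacter within a library, does not depend on any other taxon. In control swabs the ratio ran from 0.144 in library 5 to 3.15 in library 1, and in PET swabs from 0.119 in library 2 to 0.948 in library 1. Control library 1 was the only swab of the 12 with more Streptococcus than Muribacter. Mean log2 ratios were -0.74 ± 1.48 in control and -1.25 ± 1.10 in PET, a difference of -0.51 (exact permutation p = 0.519, two-sided; p = 0.776 after Benjamini-Hochberg adjustment over 9 values of a library). The difference fell within the spread of either arm. It went to -0.03 without control library 1, to -0.15 without PET library 2 and to -0.92 without control library 5. With the leading feature of each genus in place of the whole genus it turned to 1.53 (exact permutation p = 0.610), where PET library 2 and its 0 counts of Muribacter feature 1 enter through the pseudocount. Without PET library 2, an alternative chosen after seeing the data, this difference was -0.44, so the turn rests on that library.

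The combined share of the pair was less even in PET swabs. Control swabs lay between 80.0% and 92.3%. PET libraries 1, 3 and 4 lay above all control swabs at 94.1%, 92.5% and 94.5%, and PET library 6 was inside the control range at 87.8%. PET libraries 2 and 5 were far below it, at 40.3% and 50.1%. The difference between the means of 85.3% ± 4.96 and 76.6% ± 24.6 did not pass the exact permutation test (p = 0.448, adjusted p = 0.776). The difference of -8.75 percentage points shrank to -1.5 without PET library 2 and to -3.45 without PET library 5.

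Below the genus, swabs differed in which Muribacter sequence led. Features are numbered within a genus by their mean share over the 12 swabs. Muribacter feature 1 made up 52.6% of control library 4, 31% of control library 5 and 60.4% of PET library 6, was at 0 in PET library 2 and lay between 1.80% and 8.28% in the other 8. Muribacter feature 2 led control libraries 2 and 6 at 34.8% and 33% and PET library 5 at 21.3%, and it was the leading Muribacter sequence of control library 1 at 11.3% and PET library 4 at 23.2%. It lay between 0.0225% and 0.0354% in control libraries 3 and 5 and PET libraries 2 and 6. Muribacter feature 3 led PET libraries 2 and 3 at 31.1% each and was the leading Muribacter sequence of PET library 1 at 18.7%. It lay between 0% and 0.0366% in control libraries 4 and 5 and PET library 6. Muribacter feature 4 was the first feature of control libraries 3 and 5, at 32.4% and 38.4%. In the other 10 swabs it was found in PET library 4 alone, at 0.0164%. All 5 leading Muribacter features carry the species label Muribacter muris, so the swap of sequences is within 1 labelled species. The genus held 61 features in these swabs, of which 1 was in all 12.

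**Figure D2:**
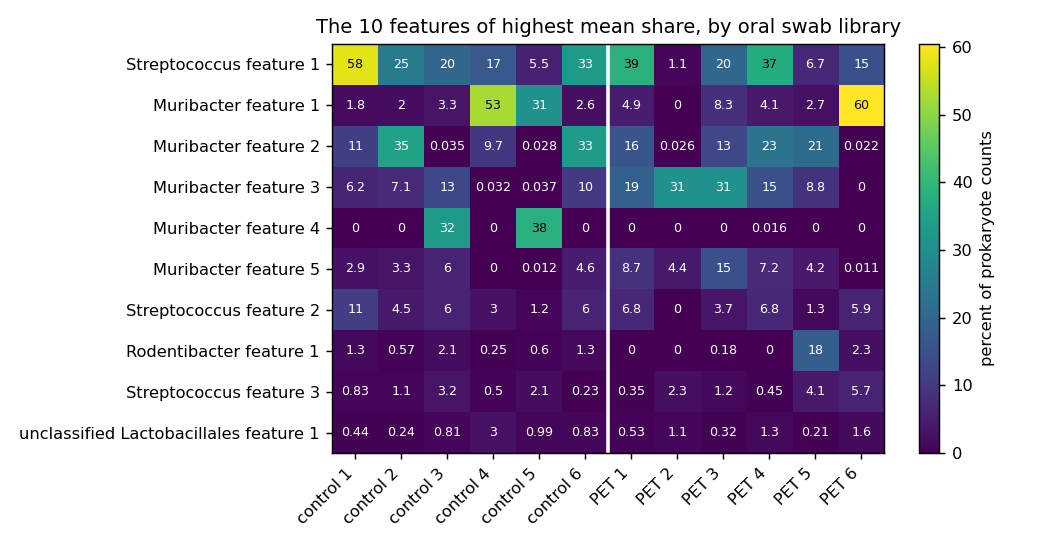
Each cell gives the percent of prokaryote counts (colour scale and printed number) of 1 of the 10 features with the highest mean share (rows) in 1 oral swab library (columns, control left of the white line and PET right of it). Muribacter feature 1 reaches 52.6% in control 4 and 60.4% in PET 6, Muribacter feature 4 is above 30% in control 3 and control 5 alone, and Streptococcus feature 1 ranges from 1.15% in PET 2 to 58.1% in control 1.

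Streptococcus was more uniform. Streptococcus feature 1, labelled Streptococcus danieliae, was in all 12 swabs and was the leading Streptococcus sequence in every swab except PET library 2. It ran from 5.45% to 58.1% in control (median 22.3%) and from 1.15% to 38.5% in PET (median 17.3%), with an edgeR adjusted p of 0.997. In PET library 2 the leading sequence was Streptococcus feature 3, at 2.33% against 1.15% for Streptococcus feature 1, and Streptococcus feature 2 was at 0. In the 11 swabs where both had at least 1000 counts, Streptococcus feature 1 stood to Streptococcus feature 2 in a ratio with a median of 5.34. The ratio was 3.32 in control library 3, 4.73 in control library 5 and 2.51 in PET library 6. Muribacter feature 3 stood to Muribacter feature 5 at 2.08 to 2.20 in 8 of the 9 swabs with at least 1000 counts of both, and at 7.03 in PET library 2. These 4 swabs were also the 4 in which Muribacter feature 2 was at or below 0.0354%; this was noticed in the values and not tested.

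Smaller members of the mouth community ranged widely within an arm. Whether they varied more by library than by arm was not tested. Rodentibacter, a relative of Muribacter that colonises rodent airways and mouth, lay between 0.25% and 3.88% in control (median 1.6%). In PET it lay between 0.126% and 2.77% in 5 swabs and reached 22.4% in PET library 5 (median 0.795%). The log2 change of 0.57 ± 0.87 (SE) did not pass edgeR's test (adjusted p = 0.911), and was -0.08 without PET library 5. Rodentibacter feature 1, labelled Rodentibacter pneumotropicus, was found in all 6 control swabs and in 3 of 6 PET swabs. Rodentibacter feature 2, labelled Rodentibacter heylii, was found in 4 of 6 control and 6 of 6 PET swabs.

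Campylobacter, curved microaerophilic bacteria, stayed at or below 0.395% in control swabs and in 4 PET swabs, and reached 3.98% in PET library 2 and 3.11% in PET library 5. Its medians were 0.0632% and 0.0960%, and its log2 change of 2.33 ± 1.27 (SE) did not pass edgeR's test (adjusted p = 0.786). The log2 change was 0.96 without PET library 2 and 1.28 without PET library 5. Porphyromonas, anaerobes that live on peptides in gum crevices, made up 5.66% of control library 4, 2.09% of control library 5 and 3.47% of PET library 6. It was at or below 0.0326% in the other 9 swabs. The 3 swabs rich in Porphyromonas were the same 3 in which Muribacter feature 1 exceeded 30%; this overlap was seen in the values and not tested. Unclassified Lactobacillales lay between 0.401% and 3.02% in all 12 swabs, at 1.5% ± 1.15 in control and 1.28% ± 0.623 in PET (edgeR adjusted p = 0.879).

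Gut-type bacteria were taken as a list of families, orders and genera of intestinal anaerobes, less genera of those families that are known from the mouth. Helicobacter was also on the list. In control swabs the list made up from 4.06% to 7.94% of counts (median 5.0%). In PET swabs it ran from 0.958% to 35.6% (median 3.05%). PET library 2, at 35.6%, and PET library 5, at 16.2%, lay above every control swab. PET libraries 1, 3, 4 and 6, at 2.72%, 3.35%, 0.958% and 2.75%, lay below every control swab. The mean was therefore higher in PET (10.3% ± 13.6 against 5.29% ± 1.39, SD, n = 6 each) while the median was lower. On the log2 scale the means differed by -0.07 (exact permutation p = 0.939, adjusted p = 0.939), and on the percent scale by 4.98 percentage points (exact permutation p = 0.474). The SD on the log2 scale was 0.34 in control and 1.92 in PET; that difference of spreads was noticed in the values and not tested. As single libraries were left out, the log2 difference ran from -0.65 without PET library 2 to 0.40 without PET library 4. It was above 0 without control library 2 and without each of PET libraries 1, 3, 4 and 6.

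**Figure D3:**
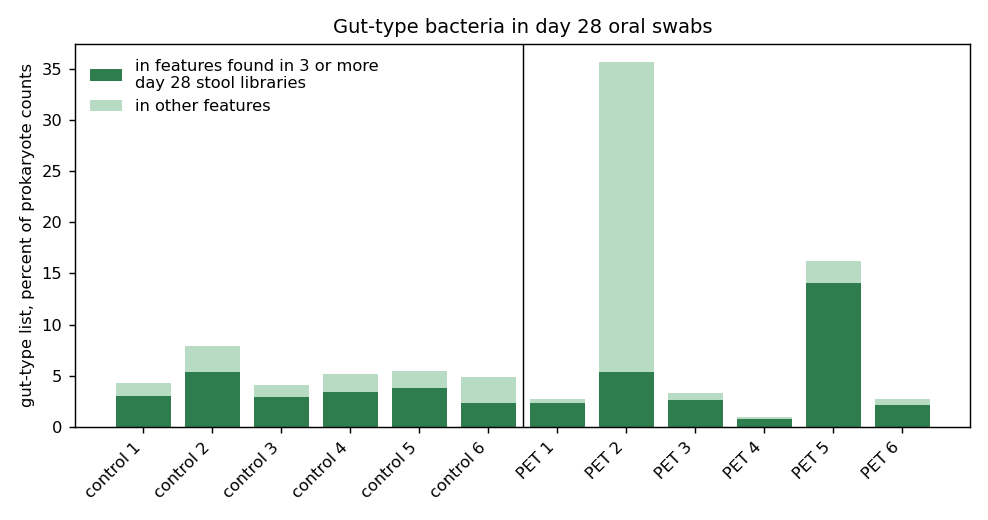
Bars give the share of the gut-type list (y axis, percent of prokaryote counts) in each oral swab library (x axis, control left of the line and PET right of it), split into features found in at least 3 of the 12 day 28 stool libraries (dark) and other features (light). PET 2 stands at 35.6% with most of it light, PET 5 at 16.2% with most of it dark, and the other 4 PET swabs lie below the lowest control swab at 4.06%.

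The gut-type bacteria of PET libraries 2 and 5 were not the same. In control swabs from 49.0% to 72.0% of gut-type counts fell in features found in at least 3 of the 12 day 28 stool libraries. In PET library 5 this share was 86.6%, and in PET libraries 1, 3, 4 and 6 it lay between 77.4% and 85.2%. In PET library 2 it was 15%. As a share of the whole library, stool-detected gut-type features made up 5.35% of PET library 2, close to the highest control value of 5.38%, and 14% of PET library 5. The same fraction lay between 0.742% and 2.65% in the other 4 PET swabs and between 2.38% and 5.38% in control. A count of all stool-detected features, with no list of taxa, is no measure of gut bacteria here, since it takes in Streptococcus feature 1 and Muribacter feature 1 and covers from 39.9% to 86.6% of each swab.

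The gut-type counts of PET library 2 were led by Bacteroides (6.93%), Faecalibacterium (4.28%), Agathobacter (3.03%), Subdoligranulum (2.90%) and an unclassified [Eubacterium] coprostanoligenes group (2.41%). The second to the fourth of these make butyrate. Outside the list it also held Megasphaera at 4.80%, Dialister at 3.50% and Bifidobacterium at 2.81%; these 3 genera were named after their values were seen. Megasphaera was at or below 0.220% in the other 11 swabs, Dialister at or below 0.311% and Bifidobacterium at or below 0.267%. With Dialister, Megasphaera, Bifidobacterium, Succinivibrio and Phascolarctobacterium added, the gut-type share of PET library 2 was 46.9%, and that of PET library 5 was 16.3%.

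The leading sequences of these genera in PET library 2 were rare in day 28 stool. Agathobacter feature 1, at 2.40% of PET library 2, was found in 1 of the 12 day 28 stool libraries, with a highest share of 0.0123%. It was also found in 8 colon and 10 lung libraries, with highest shares of 1.06% and 2.05%. Faecalibacterium feature 1, at 1.69% of PET library 2, was in 3 stool, 11 colon and 11 lung libraries, and reached 6.71% in control lung library 2. Bifidobacterium feature 1, labelled Bifidobacterium adolescentis, made up 2.67% of PET library 2 and was in 2 stool libraries at up to 0.0115%. It was also in 11 colon and 10 lung libraries, and reached 2.91% in PET lung library 5. Megasphaera feature 1, labelled Megasphaera elsdenii, was at 2.87% of PET library 2 and in 1 other swab. It was in 2 stool, 1 colon and 3 lung libraries, and reached 4.53% in control lung library 2. Dialister feature 1 was in 1 stool, 3 colon and 2 lung libraries, at up to 0.0377%. Stool and swab DNA came from 1 kit and tissue DNA from another, per the labels; whether DNA from reagents or other libraries has a part in these sequences was not tested.

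The gut-type counts of PET library 5 were led by genera that also lead stool, and the same 5 genera led this list in 6 other swabs, 3 of each arm. Unclassified Lachnospiraceae made up 3.24%, Bacteroides 1.6%, Alistipes 1.53%, Lachnospiraceae NK4A136 group 1.46% and unclassified Muribaculaceae 1.25%. All 20 leading genera of day 28 stool were found in all 12 swabs, and 13 of them had their highest swab share in PET library 5, 5 in PET library 2 and 19 their lowest in PET library 4. Of the gut-type genera found in swabs, 64 were highest in PET library 2 and 30 in PET library 5. PET library 5 also had the second lowest total, 140684 counts, and 2.70% of its counts were in genera often met as reagent DNA, against 0.118% to 1.16% in the other 11. In addition, 4.18% of all its counts were in features with no taxonomy entry. Their part in the gut-type share was not tested.

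Among the 8 gut-type genera of highest mean share, none passed edgeR's test. Bacteroides, which degrades complex glycans, ran from 0.195% to 1.12% in control (median 0.359%) and from 0.0962% to 6.93% in PET (median 0.389%). Its arms overlapped, and the log2 change of 1.21 ± 0.70 (SE, adjusted p = 0.786) became -0.08 without PET library 2. Faecalibacterium, a butyrate producer, ran from 0.0462% to 0.947% in control (median 0.215%). In PET it lay between 0.0201% and 0.150% in 5 swabs and at 4.28% in PET library 2 (median 0.0652%). The median was lower in PET and the mean higher. The fitted log2 change of 0.32 ± 1.17 (adjusted p = 0.954) was -0.77 with TMMwsp scaling and -2.47 without PET library 2. Alistipes, a bile-tolerant anaerobe, lay between 0.165% and 0.342% in control and between 0.0719% and 0.288% in PET libraries 1, 3, 4 and 6, with 0.909% and 1.53% in PET libraries 2 and 5. Subdoligranulum and Agathobacter had PET medians of 0.0400% and 0.0279% beside control medians of 0.0389% and 0.0381%, and 2.90% and 3.03% in PET library 2. Unclassified Lachnospiraceae, Lachnospiraceae NK4A136 group and unclassified Muribaculaceae had log2 changes of -0.01, -0.07 and -0.15, each with an adjusted p of at least 0.926, and each turned above 0 with library totals. Subdoligranulum turned from 1.32 to -1.22 and Agathobacter from 1.38 to -2.49 without PET library 2.

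**Figure D4:**
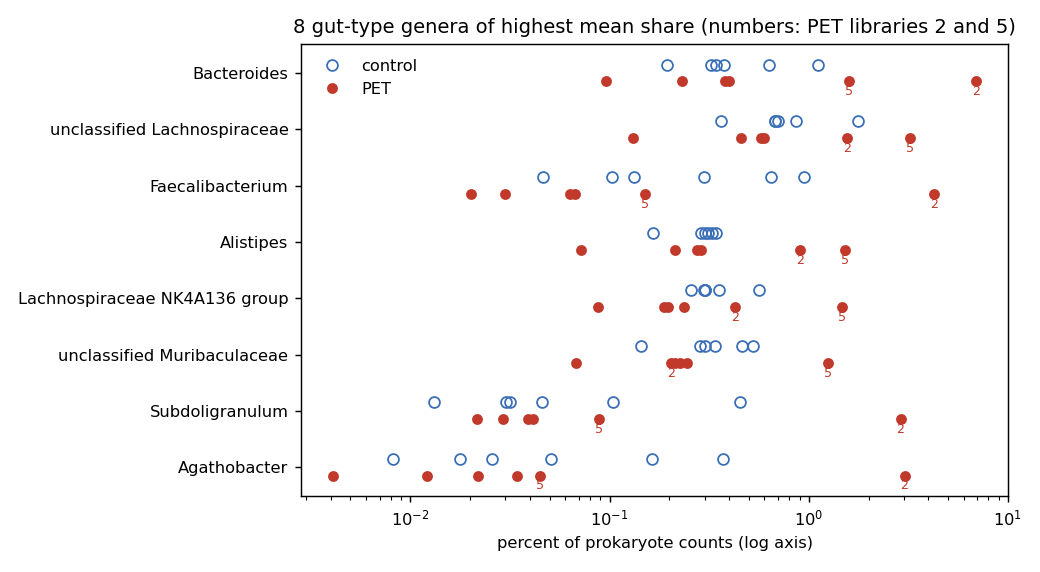
Points give the percent of prokaryote counts (x axis, log scale) of the 8 gut-type genera with the highest mean share (rows) in each oral swab library, open for control and filled for PET, with PET libraries 2 and 5 numbered. PET 2 or PET 5 is the highest swab for each genus, and the other PET swabs lie within or below the control points.

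Of the 94 gut-type genera with enough counts to be tested, 0 passed, 50 had a log2 change above 0 and 44 below it, and the median was 0.07. Over all 175 genera tested 96 were above and 79 below 0, with a median of 0.14. The median of all genera was 0.56 with library totals, -0.08 with TMMwsp and -0.56 without PET libraries 2 and 5. Other lists gave no call either. The lactic acid bacteria ran from 0.163% to 2.68% in control and from 0.0994% to 3.40% in PET, highest in PET library 2, control library 2 and PET library 5. That list takes in Bifidobacterium, and Bifidobacterium feature 1 alone made up 2.67% of PET library 2. Skin genera stayed at or below 0.716% and enterobacteria at or below 1.39%, both highest in control library 5. The mouth list made up 84.9% to 93.8% of control swabs and 93.3% to 95.5% of PET libraries 1, 3, 4 and 6, against 42.5% in PET library 2 and 72.6% in PET library 5. This list does not take in Campylobacter, Bergeyella or unclassified Lactobacillales.

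The diversity of the swabs followed the same libraries. Shannon index (natural log, at 119446 counts) ran from 1.76 to 2.57 in control and from 1.62 to 2.19 in PET libraries 1, 3, 4 and 6, and was 3.79 in PET library 2 and 3.29 in PET library 5. The means were 2.18 ± 0.305 and 2.46 ± 0.871 (exact permutation p = 0.476, adjusted p = 0.776), and the difference of 0.279 was 0.0137 without PET library 2. Richness was 401 ± 104.1 and 358 ± 170 features (exact permutation p = 0.604, adjusted p = 0.776), with the lowest values in PET libraries 4 (189) and 1 (208) and the highest in PET library 2 (660). PET library 2 needed 84 features and PET library 5 needed 50 to cover 90% of counts, while the other 10 swabs needed 5 to 19. The most abundant feature took 41.5% ± 11 in control and 36.6% ± 13.2 in PET (exact permutation p = 0.513, adjusted p = 0.776).

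Grouping the swabs by arm gave an R2, a share of the squared Bray-Curtis distances between swabs, of 0.0915. Many of the splits into 6 and 6 gave an R2 at least as high (exact permutation p = 0.374 over all of them, adjusted p = 0.776). The mean distance of a swab to the others of its arm was 0.584 ± 0.0752 in control and 0.597 ± 0.134 in PET (exact permutation p = 0.851, adjusted p = 0.939). PET libraries 6 and 2 lay farthest from their arm, at 0.760 and 0.741, and PET library 6 and control library 4 were the 2 swabs led by Muribacter feature 1. Without PET library 6 the R2 was 0.160 (exact permutation p = 0.117).

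Across genera, edgeR called 0 of 175 (0%) at an adjusted p under 0.05 and 7 (4%) had an unadjusted p under 0.05, of which 1 was higher and 6 lower in PET. DESeq2, limma on centred log ratios and the exact permutation test per genus also called 0, with 10, 9 and 2 at an unadjusted p under 0.05. The lowest edgeR p belonged to Succinivibrio, a gut fermenter of starch, which had 733 counts in control libraries 3, 4 and 6 and 0 counts in the PET arm. In shares from counts pooled over each arm, Succinivibrio was at least 216-fold lower in PET, with 3 counts over the PET arm as the floor. Without control library 4 this bound was 100.1-fold. Such a bound covers counting error only and not the spread between swabs (edgeR adjusted p = 0.722). Unclassified Prevotellaceae, Elusimicrobium and Olsenella were likewise found in 3 of 6 control and 0 of 6 PET swabs, with adjusted p of 0.722 each. These 4 genera met the filter on 3 libraries through the control arm alone, so their direction was set by the filter. Catenibacterium was found in 6 of 6 control swabs, at up to 0.122%, and in 3 of 6 PET swabs, at up to 0.0156% (edgeR adjusted p = 0.722). Holdemanella, the seventh and outside the naming rule, was in 5 of 6 and 2 of 6 swabs. Unclassified Corynebacteriales had a log2 change of 4.53 ± 1.88 (SE) and the highest share, 0.502%, in PET library 5 (edgeR adjusted p = 0.786). Without PET library 5 the log2 change was 1.95.

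Desulfovibrio, a sulfate reducer of the large intestine, was the 1 genus of 175 (0.571%) whose arms did not overlap; it is named after its values were seen. It lay between 0.00817% and 0.0166% in control and between 0% and 0.00816% in PET. The lowest control swab and the highest PET swab were thus almost equal, and the log2 change of -1.77 ± 0.96 (SE) did not pass edgeR's test (adjusted p = 0.786). At the family level edgeR called 0 of 91 (0%), with 7 (7.69%) at an unadjusted p under 0.05. No other tool was run on families.

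Among single features, edgeR called 0 of 460 (0%) and 29 (6.3%) had an unadjusted p under 0.05. DESeq2 called 7 of the 460 (1.52%), of which 2 were higher and 5 lower in PET. It gave no adjusted p for some of the 460, among them Bifidobacterium feature 1 and Agathobacter feature 1. DESeq2 thus adjusted over fewer features than edgeR, and its share of calls over those features is higher than 1.52%. The 7 are named here after their values were seen, and none of them passed edgeR's test on all 12 swabs. Bergeyella feature 2, from a genus of aerobic rods known from animal mouths, was the 1 feature of 460 (0.217%) whose arms did not overlap. It was at 0 in 5 control swabs and at 0.00774% (28 counts) in control library 3. In PET libraries 1 to 6 it stood at 0.0988%, 0.427%, 0.0453%, 0.00877%, 0.292% and 0.0888%. The lowest PET swab, with 30 counts, was close to control library 3. The log2 change was 6.43 ± 1.85 (SE) by edgeR (adjusted p = 0.405) and 6.32 ± 1.65 by DESeq2 (adjusted p = 0.0137). Without control library 3, every remaining control swab was at 0 and edgeR's adjusted p was 0.0122. The feature then met the filter through the PET arm alone, so the direction of that fit was set by the filter. In the other 11 fits that left out 1 swab the adjusted p was between 0.387 and 0.559.

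Bergeyella as a genus did not follow its second feature. Bergeyella feature 1 was at 0 in control libraries 1 and 4, at 0.439% in control library 3 and at 2.09%, 3.95% and 1.69% in control libraries 2, 5 and 6. In PET swabs it lay between 0.0260% and 0.628% and was found in all 6. The share of Bergeyella counts in Bergeyella feature 2 was 0% in control libraries 2, 5 and 6 and 1.73% in control library 3. In PET libraries 1 to 6 it was 14.7%, 58.2%, 9.77%, 1.38%, 91.8% and 15.1%, highest in PET libraries 5 and 2. The genus had a log2 change of -0.50 ± 1.55 (SE, edgeR adjusted p = 0.941), whose sign turned under centred log ratios.

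**Figure D5:**
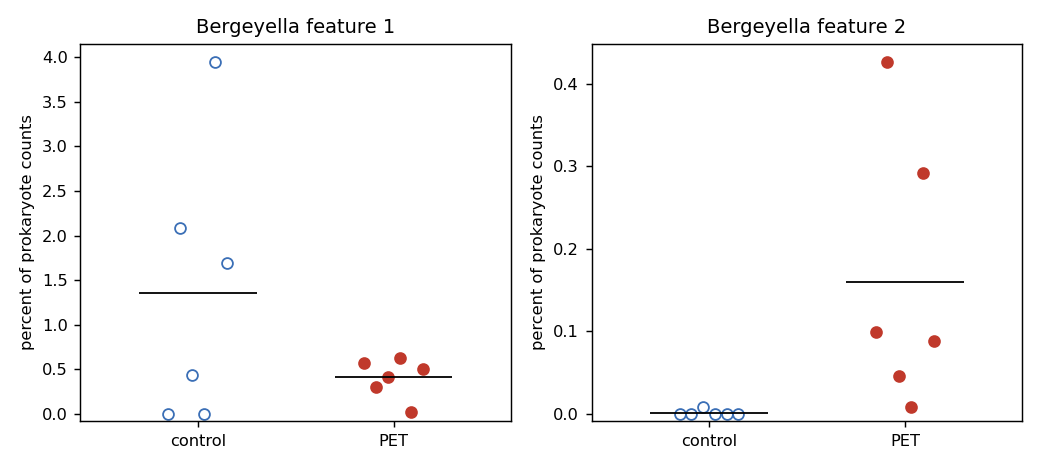
Each point is 1 oral swab library (6 control open, 6 PET filled), with the percent of prokaryote counts on the y axis and a line at the arm mean, for Bergeyella feature 1 (left) and Bergeyella feature 2 (right); the y axes differ. Feature 2 is at 0 in 5 control swabs and at 0.00877% to 0.427% in PET, while feature 1 reaches 3.95% in control and stays at or below 0.628% in PET.

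Of the other 6 features that DESeq2 called, Muribacter feature 4 had the highest mean share and was lower in PET (edgeR log2 -10.24 ± 4.32, SE, adjusted p = 0.631; DESeq2 adjusted p = 0.0202). It led 2 control swabs, was at 0 in the other 4 and had 56 counts in the PET arm, all in PET library 4. These 3 swabs are the fewest the filter allows, so leaving out any 1 of them took the feature out of the test. Muribacter feature 6 had 0 counts in control and was found in PET libraries 2, 3 and 5 at 0.0773%, 0.0318% and 0.485%, at least 403-fold higher against the floor of 3 counts over the control arm and at least 170.2-fold without PET library 5. Dialister feature 3, in 4 control swabs, was at least 331-fold lower, and Prevotella feature 7, in the same 4 swabs, at least 151-fold lower. Catenibacterium feature 1 was found in 6 of 6 control swabs and 1 of 6 PET swabs, at shares of at most 0.0655%. Unclassified Muribaculaceae feature 24 was in 5 of 6 control swabs at up to 0.0187% and in 0 of 6 PET swabs, at least 47.8-fold lower. It was found in 11 of the 12 day 28 stool libraries. Each of these lowest folds compares counts pooled over each arm, so it covers counting error only and not the spread between swabs. Muribacter feature 6 met the filter through the PET arm alone. The features of Dialister, Prevotella and unclassified Muribaculaceae met it through the control arm alone, so all these directions were set by the filter. Bergeyella feature 2, in 1 control swab, also reached 3 libraries only through the PET arm. Catenibacterium feature 1, in 1 PET swab, reached them only through the control arm. Of the 460 features tested, 12 had 0 counts in PET and 7 had 0 counts in control.

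The dominant mouth genera were found at the other sites at day 28 at low shares. Muribacter was at 0.162% ± 0.210 in control lung and 0.533% ± 0.421 in PET lung, at 0.0382% ± 0.0138 and 0.0630% ± 0.0688 in colon, and at 0.0238% ± 0.0194 and 0.0195% ± 0.0106 in stool (SD, n = 6 each). Streptococcus was higher in lung, at 1.57% ± 0.944 in control and 1.82% ± 1.61 in PET, where it reached 3.82%. It was at 0.0496% ± 0.0387 and 0.164% ± 0.0823 in colon and at 0.020% ± 0.0124 and 0.0196% ± 0.00921 in stool. Rodentibacter was found in 2 of 6 control lung libraries and 0 of 6 PET lung libraries. These values are given for level only and no test was run on them here.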

How the data were processed

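The authors sequenced 16S rRNA amplicons in pairs of 300 bases and deposited counts of reads per feature and library, whole numbers with no normalization. The authors' deposited taxonomy table adds a confidence per feature, a fraction (lowest 0.332), which was not used as a filter. Per the submitters' processing notes cutadapt, Bowtie2 and GRCm39 were used; what each did, the denoiser, the classifier and its database are not stated there or in the labels.

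Of 8574 features, 7922 were prokaryote; 619 without a taxonomy entry were left out. Counts of the 12 oral swabs were summed by genus and family and tested with edgeR 4.0.16 (TMM, quasi-likelihood F test, at least 10 counts in all and above 0 in at least 3 libraries, Benjamini-Hochberg, threshold 0.05) in R 4.3.3. DESeq2 1.42.0 and limma 3.58.1 served as alternatives. Standard errors of edgeR changes were derived from F. Values of 1 per library had exact permutation tests with a pseudocount of 0.5; with 6 against 6 the smallest possible p is 0.00216. Taxa were named by a rule: the 10 genera and 10 features of highest mean share, the 6 genera of lowest p and the 8 gut-type genera of highest share; other names are marked. Samples, lists and rules were chosen with earlier results of these data known. The test code was checked on simulated data. Replicate numbers follow accession order and only name a library.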

Additional observations from a re-analysis of the deposited data

Results flagged for a closer look

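A library was listed here where its gap to the nearest swab of its arm, divided by the range of the arm, was above Dixon's critical value at the 95% level. This was asked of 48 values in both arms, 96 groups in all, and 29 met it. A chance rate of about 1 group in 20 holds for normal values only. The shares here include zeros, and a taxon found in 1 library of an arm is always flagged. Shares of 1 library are also not independent, so the 29 cannot be set against that rate. Of the 29, PET library 5 accounts for 8 and PET library 2 for 4.

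In PET library 2 they were Bacteroides at 6.93%, Faecalibacterium at 4.28%, Agathobacter at 3.03% and Subdoligranulum at 2.90%, where the other PET swabs were at or below 1.6%, 0.150%, 0.0445% and 0.0890%. In PET library 5 they were Rodentibacter at 22.4% and Rodentibacter feature 1 at 18.2%, Lactobacillus at 2.17%, Lachnospiraceae NK4A136 group at 1.46%, unclassified Muribaculaceae at 1.25%, unclassified Corynebacteriales at 0.502%, the reagent list at 2.70% and features without a taxonomy entry at 4.18%. PET library 6 stood out for Muribacter feature 1 at 60.4% and Porphyromonas at 3.47%, and PET library 4 for Muribacter feature 4 at 0.0164%.

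In control library 2 they were the gut-type list at 7.94%, the lactic acid bacteria at 2.68%, Lactobacillus at 2.63%, unclassified Lachnospiraceae at 1.77% and Lachnospiraceae NK4A136 group at 0.563%. Control library 4 stood out for Porphyromonas at 5.66%, unclassified Lactobacillales feature 1 at 3.0%, Succinivibrio at 0.156% and counts of non-prokaryote features at 0.0607%. Control library 5 stood out for enterobacteria at 1.39% and skin genera at 0.716%. Control library 6 was low for Alistipes at 0.165% and high for Subdoligranulum at 0.451%. Control library 3 held Elusimicrobium at 0.0379%.

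Outside the prokaryote counts, features without a taxonomy entry reached 4.18% in PET against at most 0.0252% in control (means of 0.736% ± 1.69 and 0.0149% ± 0.00937, exact permutation p = 0.0541, not adjusted). Other non-prokaryote features reached 0.278% in PET library 4 against at most 0.0607% in control (exact permutation p = 0.279).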

How the results depend on the processing

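No paired analysis was possible because replicate numbers follow accession order and the labels tie no swab of one arm to a swab of the other. Of 39 alternatives to the counts of called taxa and the 9 values per library, leaving out single swabs aside, 35 kept direction and side of the threshold. DESeq2 called 7 features where edgeR called 0. The Streptococcus to Muribacter balance turned to 1.53 with the leading feature of each genus, and was -0.44 without PET library 2, a setting chosen after seeing the data. The gut-type difference turned to 0.087 with all stool-detected features and to 4.98 in percent. Genus and family counts stayed at 0 under every alternative run, and also without PET libraries 2 and 5, a choice made after seeing the data, as were the 2 further gut-type lists (differences of -0.092 and -0.16 on the log2 scale, no test). None of the named genera passed the threshold under any setting.

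With library totals the log2 change turned to -0.036 for Muribacter, -0.36 for Streptococcus, -0.23 for unclassified Lactobacillales, 0.37 for unclassified Lachnospiraceae, 0.33 for Lachnospiraceae NK4A136 group and 0.10 for unclassified Muribaculaceae. Among features it turned to -0.43 for Streptococcus feature 1, -0.26 for Muribacter feature 1, -0.29 for Muribacter feature 2, -0.37 for Streptococcus feature 2 and -0.28 for unclassified Lactobacillales feature 1. With TMMwsp it turned to -0.77 for Faecalibacterium, -0.043 for Streptococcus feature 1 and -0.10 for Muribacter feature 2. With limma on centred log ratios and with the exact permutation test it turned to -0.41 and -0.50 for Streptococcus, -0.14 and -0.23 for Rodentibacter, 2.92 and 2.84 for Bergeyella, 0.47 and 0.39 for Porphyromonas, -0.93 and -1.02 for Faecalibacterium, and -0.10 and -0.19 for Agathobacter. The exact permutation test also gave -0.026 for unclassified Lactobacillales. DESeq2 gave 0.10 for Lactobacillus and -0.75 for Faecalibacterium. For Faecalibacterium the stricter filter gave -0.18, no filter -0.23 and all features -0.56. The fit of all 60 libraries gave 0.53 for Porphyromonas and 0.0040 for unclassified Lachnospiraceae. For Muribacter feature 4 DESeq2 gave -10.43 with an adjusted p of 0.0202. The cause of these turns was not tested.

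As single swabs were left out, the gut-type difference ran from -0.65 to 0.40 and the difference in spread from -0.0688 to 0.0764. The count of called features ran from 0 to 1. The 1 was Bergeyella feature 2, in a fit where every control swab kept was at 0. Ranges of the log2 change that cross 0 were -0.40 to 0.88 for Streptococcus, -0.077 to 1.03 for Rodentibacter, -0.41 to 1.12 for unclassified Lactobacillales, -0.084 to 1.24 for Bacteroides, -0.37 to 0.26 for unclassified Lachnospiraceae and -7.11 to 1.34 for Porphyromonas. They were -0.94 to 1.31 for Lactobacillus, -2.47 to 0.75 for Faecalibacterium, -0.42 to 0.049 for Lachnospiraceae NK4A136 group, -1.22 to 2.65 for Subdoligranulum and -2.49 to 2.34 for Agathobacter. Among features they were -0.70 to 0.71 for Streptococcus feature 1, -1.32 to 1.22 for Muribacter feature 1, -1.12 to 0.95 for Muribacter feature 2, -0.48 to 0.72 for Streptococcus feature 2, -0.74 to 0.64 for Rodentibacter feature 1, -0.037 to 1.37 for Streptococcus feature 3 and -0.39 to 1.13 for unclassified Lactobacillales feature 1. Depth limits taxa below about 0.00251% in the shallowest swab.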
